A study of Mus musculus with 4 samples.

Results

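The BCL2 family is described here by the probes of 10 of its genes, which are Bcl2a1b, Bcl2a1d, Bcl2, Bcl2l1, Mcl1, Bax, Bak1, Bbc3, Pmaip1 and Bcl2l11. A probe was taken when it was not a control and the array's gene name was one of these. This gave 11 of the 55681 probes and 9 of the 10 genes, with 1 spot per probe. Bcl2l1 and Mcl1 have 2 probes each, and no probe carries the name Bcl2a1b. The RNA came from C2C12 cells, a mouse myoblast line, that received either siRNAs against exon 14 of Fxr1 (the siFxr1 condition) or a control siRNA (the siControl condition) and were analysed 48 hrs after transfection. The knock-down is transient, and a single line was used. In each of 2 independent experiments the siFxr1 and siControl RNAs were hybridised in 1 colour (Cy3) on the same slide, which makes 4 arrays and n = 2 per condition. The study asked which transcripts change when the RNA-binding protein FXR1P is depleted in myoblasts, and the present comparison asks how the mRNAs of the family behave.

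Proteins of the BCL2 family decide at the outer mitochondrial membrane whether a cell enters apoptosis. The effectors BAX and BAK open pores in that membrane and let cytochrome c into the cytosol, where the apoptosome forms and activates caspases. The pro-survival members BCL2, BCL-xL (gene Bcl2l1), MCL1 and A1 (genes Bcl2a1a, Bcl2a1b and Bcl2a1d) hold the effectors in check, and the BH3-only proteins PUMA (Bbc3), NOXA (Pmaip1) and BIM (Bcl2l11) are made or freed under stress and occupy the groove of the pro-survival members. Much of the regulation of these proteins is by turnover and by binding, so an mRNA level is only one of the layers.

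Values below are normalized log2 signals, that is the background-corrected intensity of a spot on the log2 scale after quantile normalization of the 4 arrays, so a difference of 1 is a 2-fold difference. Signals of different probes were not compared as amounts of mRNA, since each probe binds its target with its own strength. They were ranked to pick the brightest probe of a gene, and summed over the blood cell markers, where brighter probes weigh more. Both probes of the targeted gene, Fxr1, were lower in siFxr1, with differences of -3.31 and -3.61. A probe is called detected on an array where the scanner software marked it as well above background. Of the 10 myoblast markers looked at, 8 were detected (Myf5 and Myf6 were not, on any array), including Myod1, Myog and Des. Between 45.4% and 52.9% of probes were detected per array, 0 spots were saturated, and RNA integrity was scored 8 on the siFxr1 array of experiment 1 and 9 on the remaining arrays. The background of a count is taken either over all probes or over the 25540 probes detected on both siFxr1 arrays or on both siControl arrays, which are called the detected probes. All 11 probes of the family are among them, Bcl2a1d through the siFxr1 arrays alone. Arrays of the same experiment deviated together (r = 0.714 across probes, which are not independent replicates), so differences within each experiment are given beside the means. RNA of a whole culture was measured, in which fewer cells of a kind and less RNA per cell cannot be told apart.

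What a probe can tell depends on the sequence it carries. The probes shown here are the one of Bcl2a1d, because it decides which A1 genes were measured, and those of Bcl2, Bcl2l1 and Bcl2l11 that have an open reading frame and lie in the coding sequence. All probes have 60 bases, and only the first 30 are shown for Bcl2a1d. They are written 5′ to 3′, and the capitals in the Bcl2l11 probe mark the neighbouring glycine and aspartate codons of the BH3 motif, by which BIM binds its partners.

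Bcl2a1d (A_55_P1978424, first 30 bases): cacttggcatttccatttacaaacatgaaa
Bcl2 (A_51_P380013): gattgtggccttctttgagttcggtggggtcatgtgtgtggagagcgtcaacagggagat
Bcl2l1 (A_52_P510877): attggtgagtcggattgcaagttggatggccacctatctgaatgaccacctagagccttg
Bcl2l11 (A_51_P484880): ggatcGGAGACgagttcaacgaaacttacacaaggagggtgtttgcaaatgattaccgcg

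The probe named Bcl2a1d, placed by the array's annotation at chr9:88618165-88618224 of mm9 on the minus strand, lists transcripts of Bcl2a1d, Bcl2a1b and Bcl2a1a, so its signal is that of these 3 near-identical genes together. The Bcl2 probe covers part of the BH1 domain, which helps form the groove that BH3 motifs occupy. The Bcl2l11 probe spans 11096 bases of chromosome 2, from 127972893 to 127983988, and therefore crosses an intron of the gene. The array carries a further probe on this gene, under a transcript identifier and outside the rule used here, which was not detected on any of the 4 arrays.

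The A1 transcripts, which encode a pro-survival protein best known from blood cells and as a target of NF-kB, showed the largest difference of the family. The normalized log2 signal of the Bcl2a1d probe was 3.43 and 2.72 on the siControl arrays of experiments 1 and 2, and 7.73 and 7.62 on the siFxr1 arrays. Both siFxr1 arrays lay far above both siControl arrays, and the probe was detected on both siFxr1 arrays and on neither siControl array. The difference was 4.30 in experiment 1 and 4.91 in experiment 2, a mean of 4.60 (SE 0.32, 95% interval from 3.63 to 5.57).

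Because the siControl signal was at the background, the size of this difference is not well determined. Before any correction the median intensity of the spot was 104 and 91 on the siControl arrays, against a local background of 73 and 61. On the siFxr1 arrays it was 245 and 352, against 66 and 61. The scanner software's own error of the corrected value was 82.2% and 100% of that value on the siControl arrays and 10.9% and 10.3% on the siFxr1 arrays. When each siControl array was given the lowest signal at which a probe was still detected on it, the siFxr1 mean of A1 was 8.62-fold higher. This is no strict lower limit, since other probes were undetected at higher signals and the handling of the background matters. The fitted mean of 4.60 would be 24.3-fold and depends on how the background is subtracted. It was 4.77 after scaling to the 75th percentile, 1.91 after normexp correction, 1.61 without background correction and 1.62 in the authors' normalized table.

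**Figure D1:**
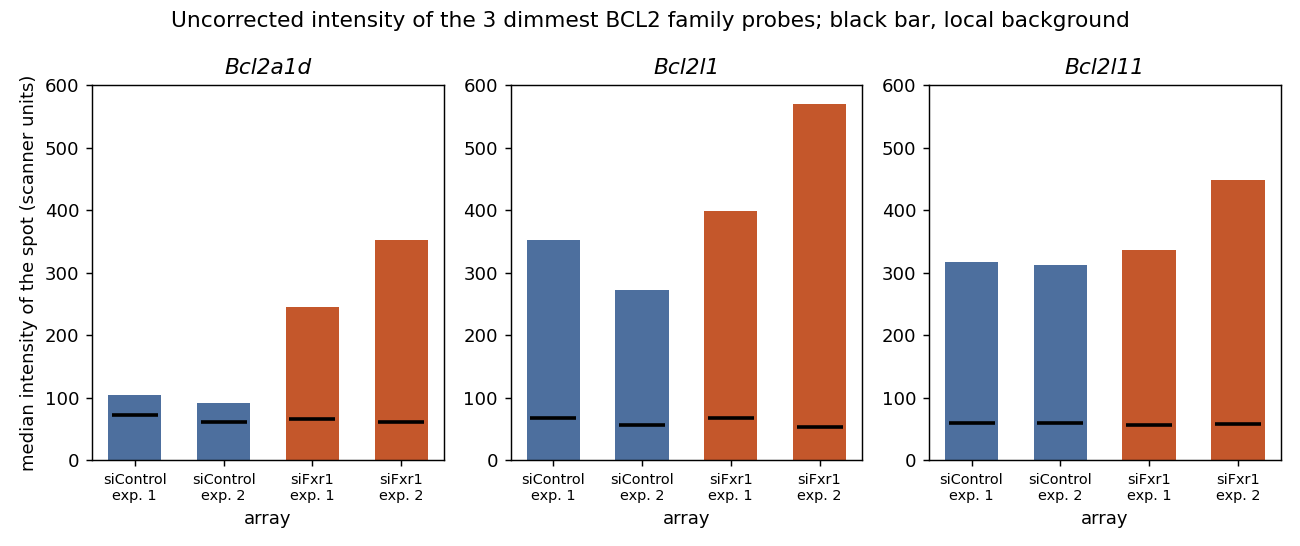
Median intensity of the spot before correction (vertical axis, scanner units) on the 4 arrays (horizontal axis, blue for siControl and orange for siFxr1) for the 3 dimmest probes of the family, with 1 spot per array and the local background as a black bar. The Bcl2a1d spot stood at 104 and 91 in siControl, close to its background, and at 245 and 352 in siFxr1, while the Bcl2l1 (A_52_P510877) and Bcl2l11 spots were clear of background on all 4 arrays.

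In the fit with the condition as the only term, limma called 0 of the 11 probes of the family, and 0% of the 55681 probes were called either by a B value above 0 or by an adjusted p under 0.05. For Bcl2a1d the limma adjusted p was 0.950, which was also the lowest reached by any probe. At an unadjusted p under 0.05 there were 2764 probes in all and 1 of the family, Bcl2a1d. The smallest p that a two-sided exact permutation test allows with 2 arrays against 2 is 0.333. With the experiment as a block, which takes out the difference between experiments, the adjusted p was 0.535. With the block and the fit restricted to the 25540 detected probes, the adjusted p was 0.0146 and B was 5.03. In that fit 0.826% of probes were called higher in siFxr1 by B, 0.56% were called lower, and 1.1% had an adjusted p under 0.05. Bcl2a1d was the 1 probe of the family among the called, and 0 were called lower. It entered that fit only through the siFxr1 arrays, on which it was bright, and a probe that enters so had to differ. With the block and the authors' table, where no such filter was applied, its adjusted p was 0.0353, and 0.28% of all probes had one under 0.05. The study's methods speak of the means of ratios, without saying which ratios entered the B test, and may be read as a fit in which each siFxr1 array is divided by each siControl array, giving 4 ratios. In that fit Bcl2a1d had a B value of 3.94 and was again the 1 probe of the family called, while 1.03% of all probes were called higher and 0.961% lower. The 4 ratios share arrays, so that fit understates the error. Over all settings tried the adjusted p of Bcl2a1d ranged from 0.0146 to 0.964.

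The A1 genes have a further relative on the array, Bcl2a1c, whose probe lies elsewhere on chromosome 9 and does not list the other A1 genes. Its signal was 2.77 and 2.79 in siControl and 3.60 and 4.60 in siFxr1. It was detected only on 1 siFxr1 array, so no fold is given.

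The start of the Bcl2a1d gene is shown because NF-kB and AP-1 are known regulators of A1. These are the 250 bases before the annotated start, from RefSeq on GRCm38.p6, chr9:88731851-88732100 on the minus strand, read along the gene. The capitals mark a match to TGANTCA, a loosened form of the AP-1 motif, which begins 114 bases before the start. Its middle base is A, while the usual form, TGA(C/G)TCA, has C or G there, so the stretch does not match the usual form.

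Bcl2a1d, before the start: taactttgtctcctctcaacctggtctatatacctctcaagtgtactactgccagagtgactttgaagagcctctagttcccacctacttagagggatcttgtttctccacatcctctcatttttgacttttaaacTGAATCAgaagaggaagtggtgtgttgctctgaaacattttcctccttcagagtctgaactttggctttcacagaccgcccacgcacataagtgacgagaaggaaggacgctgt

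Among 32851 such windows, 6.7% hold this loosened form, TGANTCA, on either strand. The same match begins 120 bases before the start of Bcl2a1a and 164 before that of Bcl2a1b, and the windows of the 3 genes are copies of each other, with identities of 95.2% between Bcl2a1a and Bcl2a1d, 96.1% between Bcl2a1b and Bcl2a1d, and 99.5% between Bcl2a1a and Bcl2a1b over the bases that align. The NF-kB motif in the form GGGNNNNNCC (held by 45.8% of windows) and the TATA motif TATAAA (12.4%), searched on both strands, had 0 matches in the 3 windows. These matches describe letters only, and no binding was measured.

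The other pro-survival genes differed less. Bcl2, the founder of the family, gave 9.32 and 10.15 in siControl and 9.50 and 9.90 in siFxr1 (probe on chromosome 1 from 108608970 to 108609029). The conditions overlapped, and the difference was 0.19 in experiment 1 and -0.25 in experiment 2. The mean of -0.03 (SE 0.39) had a 95% interval from -1.22 to 1.15, so a change of about 2-fold in either direction is within the error of these arrays.

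Bcl2l1, whose main product BCL-xL protects cells in many tissues, is read by 2 probes on chromosome 2. The one whose sequence is shown above (152655185 to 152655244) had signals of 8.20 and 7.44 in siControl and 8.54 and 8.63 in siFxr1, with a mean difference of 0.77 (SE 0.33). The other one, A_55_P1974877 (152606404 to 152606463), lies further along the transcript and had signals of 14.62 and 13.13 in siControl and 14.70 and 14.92 in siFxr1, a mean difference of 0.94 (SE 0.61). On both probes siFxr1 was above siControl on all arrays, and on both the siControl array of experiment 2 was the low one. The differences were therefore uneven, 0.34 and 1.19 in experiments 1 and 2 for the first probe and 0.08 and 1.79 for the second. Without that siControl array they were 0.39 and 0.19. Neither probe was called (limma adjusted p = 0.975 for both).

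Mcl1 encodes a short-lived pro-survival protein whose level follows its synthesis closely. Its 2 probes on chromosome 3 gave different pictures. At A_51_P238786 (95466855 to 95466914) the signals were 14.58 and 14.28 in siControl and 14.05 and 13.56 in siFxr1. Both siFxr1 arrays lay below both siControl arrays, and the difference was -0.53 in experiment 1 and -0.72 in experiment 2, a mean of -0.63 (SE 0.27). The limma adjusted p was 0.975, and 0.238 with the block among the detected probes. At A_52_P93933 (95465543 to 95465602), nearer the start of the transcript, the signals were 12.40 and 11.53 in siControl and 12.41 and 11.84 in siFxr1. There the conditions overlapped, with a mean difference of 0.16 (SE 0.43). A lower Mcl1 signal was thus seen with 1 of the 2 probes, and the difference between the probes was not tested.

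**Figure D2:**
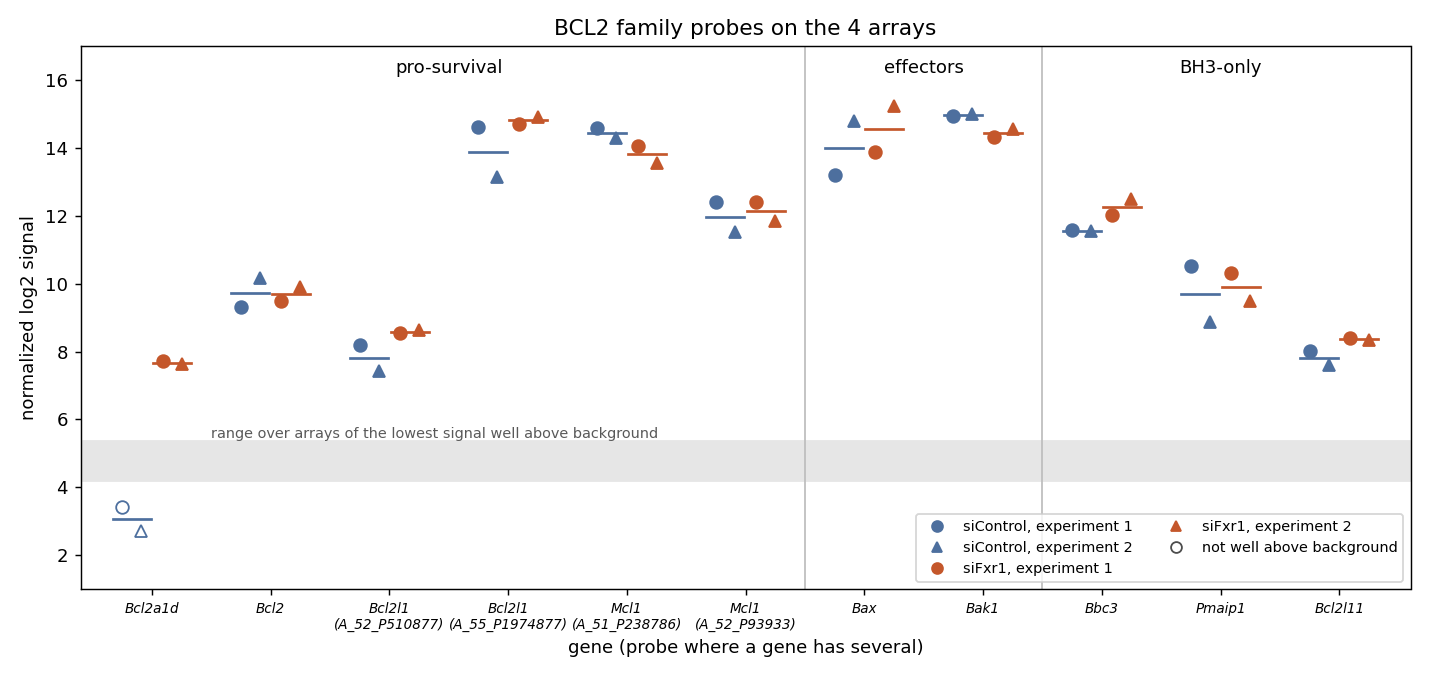
Normalized log2 signal (vertical axis) of the 11 probes (horizontal axis, by role) on the 4 arrays, with circles for experiment 1, triangles for experiment 2, blue for siControl, orange for siFxr1 and a line at the mean of each condition. Open marks are not well above background, the grey band gives the range over arrays of the lowest signal that is, and only the siControl marks of Bcl2a1d lie below it.

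The effectors are the genes whose products make the pore. Bax had signals of 13.20 and 14.79 in siControl and 13.88 and 15.23 in siFxr1 (chromosome 7, 52717122 to 52717181). The signal followed the experiment more than the condition, being 1.58 higher in experiment 2 than in experiment 1 in siControl and 1.35 higher in siFxr1. Within the experiments siFxr1 was higher by 0.68 and 0.44, a mean of 0.56 (SE 0.83 without the block, limma adjusted p = 0.975). With the block among the detected probes, the 95% interval was from -0.02 to 1.14 and the adjusted p was 0.282.

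Bak1 showed the opposite sign. Its signals were 14.93 and 15.00 in siControl and 14.31 and 14.57 in siFxr1 (chromosome 17, 27156807 to 27156866). Both siFxr1 arrays were below both siControl arrays, by 0.62 and 0.43 within the experiments. The mean was -0.52 (SE 0.18), or 1.44-fold lower, with a 95% interval from -1.07 to 0.02 and a limma adjusted p of 0.975.

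The BH3-only genes of the set are known to be switched on by stress. Bbc3, a target of p53 that encodes PUMA, had signals of 11.57 and 11.55 in siControl and 12.03 and 12.48 in siFxr1 (chromosome 7, 16903403 to 16903462). The siControl arrays were nearly equal and both siFxr1 arrays lay above them, by 0.46 and 0.94, a mean of 0.70 (SE 0.23). This is 1.62-fold, with a 95% interval from -0.00 to 1.40 on the log2 scale (limma adjusted p = 0.975, and 0.222 with the block among the detected probes).

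Bcl2l11, which encodes BIM, a protein that binds all pro-survival members, had signals of 8.02 and 7.60 in siControl and 8.38 and 8.33 in siFxr1. The siFxr1 arrays were again the higher ones, by 0.37 and 0.74, with a mean of 0.55 (SE 0.22, limma adjusted p = 0.975). Before normalization its spot had a median intensity of 316.5 and 313 in siControl and of 335.5 and 448 in siFxr1, so the siFxr1 array of experiment 2 was the one that stood out in the uncorrected values.

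Pmaip1, another p53 target, encodes NOXA, which binds MCL1 and A1. Its signals were 10.52 and 8.86 in siControl and 10.31 and 9.50 in siFxr1 (chromosome 18, 66625088 to 66625147). The conditions overlapped, and siFxr1 was lower by 0.21 in experiment 1 and higher by 0.64 in experiment 2. The mean was 0.22 (SE 0.74, limma adjusted p = 0.992).

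By size alone, the Bcl2a1d probe was the 1 of the 11 that was at least 2-fold higher in siFxr1 in both experiments, and 0 were at least 2-fold lower in both. Over all 55681 probes, 1.39% passed this size upwards and 1.16% downwards, and among the 25540 detected probes 1.94% and 1.71%. Both siFxr1 arrays lay above both siControl arrays for 5 of the 11 probes (Bcl2a1d, both of Bcl2l1, Bbc3 and Bcl2l11), against 15.9% of the detected probes. They lay below for 2 of the 11 (Bak1 and Mcl1 at A_51_P238786), against 14.7%. The 11 probes stand for 9 genes, so these shares rest on few values. Counted by gene, at its brightest probe, they were 4 above and 2 below of the 9. Bcl2a1d counts among the detected probes through the siFxr1 arrays alone. With the brightest probe of each gene, the median difference of the 9 genes was 0.55, and that of all detected probes was 0.02.

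**Figure D3:**
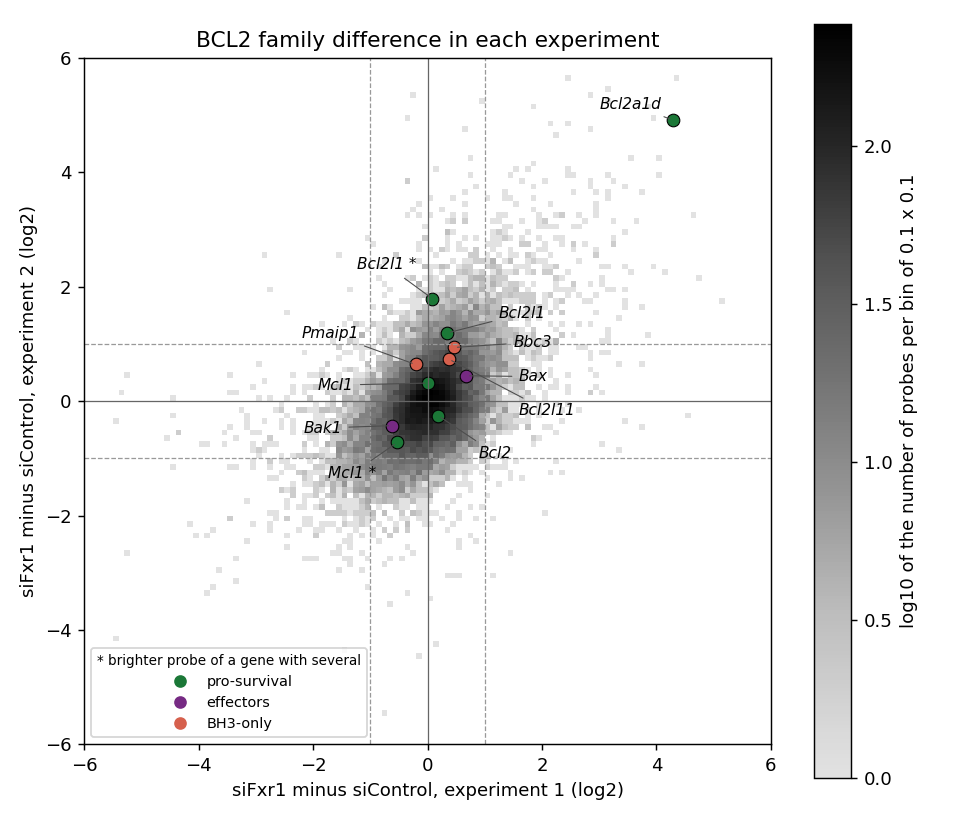
Difference between siFxr1 and siControl in experiment 1 (horizontal axis) and in experiment 2 (vertical axis), on the log2 scale, for the 11 probes (coloured points) over all detected probes (grey, darker for more probes), with dashed lines at a 2-fold difference. The Bcl2a1d point at 4.30 and 4.91 stands apart from the other 10 probes, which lie within the dense part of the cloud or near its edge.

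Genes with a pattern over the 4 arrays like that of Bcl2a1d were looked for among 18656 probes with a gene name that were detected on both siFxr1 arrays. The likeness was the root mean square difference of the mean-centred signals over the 4 arrays, where 0 is the same pattern. It was taken on the background-corrected, quantile-normalized signal alone, where the Bcl2a1d difference was 4.60. That difference was 1.61 to 1.91 with normexp correction, without background correction and in the authors' table. The search was not repeated on those signals, so the likeness holds for the 1 processing used. The nearest were Tnfrsf18, a receptor of the tumour necrosis factor family, at 0.20, Igsf5, an immunoglobulin superfamily member, at 0.29 and Sema7a, a membrane-anchored semaphorin, at 0.30. Tnfrsf18 had signals of 4.46 and 3.20 in siControl and 8.36 and 8.37 in siFxr1. Igsf5 had 5.04 and 3.62 in siControl and 8.96 and 8.56 in siFxr1, and Sema7a 9.77 and 9.00 in siControl and 14.07 and 14.64 in siFxr1. As with Bcl2a1d, the Tnfrsf18 and Igsf5 probes were undetected on the siControl arrays, while Sema7a was detected on all 4. With the substitution used for Bcl2a1d, the siFxr1 mean was 13.9-fold higher for Tnfrsf18 and 15.1-fold for Igsf5, again no strict lower limits.

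Other genes of the pathway were taken as lists with the brightest probe of each gene. In the fit with the condition as the only term, 0 genes of any list were called. Among the other BH3-only genes, 6 of 8 were detected, and all 6 were lower in siFxr1 in both experiments, as were 31.0% of all detected probes. Their median difference was -0.53. At least 2-fold lower in both experiments was 1 of them, Bmf, against 1.71% of the detected probes. The product of Bmf is held on the cytoskeleton until it is freed to bind pro-survival members. Its signals were 10.25 and 10.44 in siControl and 9.06 and 8.70 in siFxr1, a mean difference of -1.46 (SE 0.22, limma adjusted p = 0.950, and 0.0692 with the block among the detected probes). The others were Bnip3 and Bnip3l, which act in mitophagy, at -1.01 and -0.32, Bad at -0.56, the autophagy protein gene Becn1 at -0.49 and Bid at -0.09. Bik was detected on 1 siFxr1 array only and Hrk on none. The direction was thus mixed over the BH3-only genes as a whole, with Bbc3 and Bcl2l11 higher in both experiments, Pmaip1 of opposite sign in the 2 experiments and these 6 lower, and the difference between them was not tested.

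Further BCL2 homologs (Bcl2l2, Bcl2l12, Bcl2l13, Bcl2l15 and Bok) had a median difference of -0.32, from -0.52 to 0.49, and 0 of these 5 were at least 2-fold different the same way in both experiments. Bcl2l10 and Bcl2l14 were not detected on any array. Bcl2l14 was therefore left out of that count, though it was higher in siFxr1 by 1.34 in experiment 1 and 1.24 in experiment 2. Downstream, all 13 genes of the apoptosome and the caspases were detected, with a median of 0.27. For 6 of them, among which were Apaf1 and Diablo, both siFxr1 arrays were above both siControl arrays, and for 0 below. Over all detected probes these shares were 15.9% and 14.7%. None was at least 2-fold different the same way in both experiments, and 0 were called in the fit with the condition alone or with the block among the detected probes. The inhibitors of apoptosis (median 0.17 over 6 genes), the death receptor pathway (0.03 over 9), the mitochondrial channels and dynamics (-0.11 over 12) and the genes that control MCL1 and BIM turnover (-0.20 over 8) likewise had 0 detected genes at least 2-fold different the same way in both experiments. Left out of these counts were Foxo3, of the turnover list, and Naip1, an inhibitor of apoptosis. Foxo3 was higher in siFxr1 by 2.32 and 1.18 but was detected on 1 siFxr1 array only. Naip1 was higher by 1.68 and 1.57 but was not detected on any array.

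p53 and NF-kB are known to control Bbc3 and Pmaip1 on the one hand and the A1 genes on the other. The list of p53 and its regulators had a median of -0.03 over 9 genes, and Trp53 itself was at 10.04 and 11.81 in siControl and 10.17 and 11.26 in siFxr1, where the conditions overlapped. Of the 9 genes, 3 were higher and 2 lower in siFxr1 in both experiments, against 33.2% and 31.0% of the detected probes. The 3 genes described next are known to be induced by p53 and were picked after their values were seen. The part of p53 in these values was not tested. Mdm2, the ubiquitin ligase that degrades p53, had signals of 14.35 and 14.37 in siControl and 15.07 and 15.81 in siFxr1, a difference of 1.08. Trp53inp1 had 11.27 and 11.16 in siControl and 11.92 and 12.66 in siFxr1, a difference of 1.07, and for both genes the conditions did not overlap. Cdkn1a, which encodes the cell cycle inhibitor p21, differed by 0.90 at the brightest of its probes, the only one used here, by 0.08 in experiment 1 and 1.71 in experiment 2, and its arrays overlapped. None of the 3 was called (limma adjusted p = 0.975 for each). The NF-kB factors and targets had a median of 0.31 over 10 genes. In both experiments 5 of the 10 were higher and 2 lower in siFxr1, against 33.2% and 31.0% of the detected probes. The 2 lower ones were Rela at -0.20 and Nfkbia at -0.18. The part of NF-kB in the A1 difference was not tested. Of the 10 genes, 1 was at least 2-fold higher in both experiments, against 1.94% of the detected probes. This was Il6, a cytokine, with signals of 7.82 and 7.02 in siControl and 9.93 and 9.60 in siFxr1, a mean difference of 2.35 (SE 0.37, limma adjusted p = 0.950, and 0.0304 with the block among the detected probes). Rel and Icam1 were not detected on any array, and Birc3, a further target counted with the inhibitors of apoptosis, was not either.

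**Figure D4:**
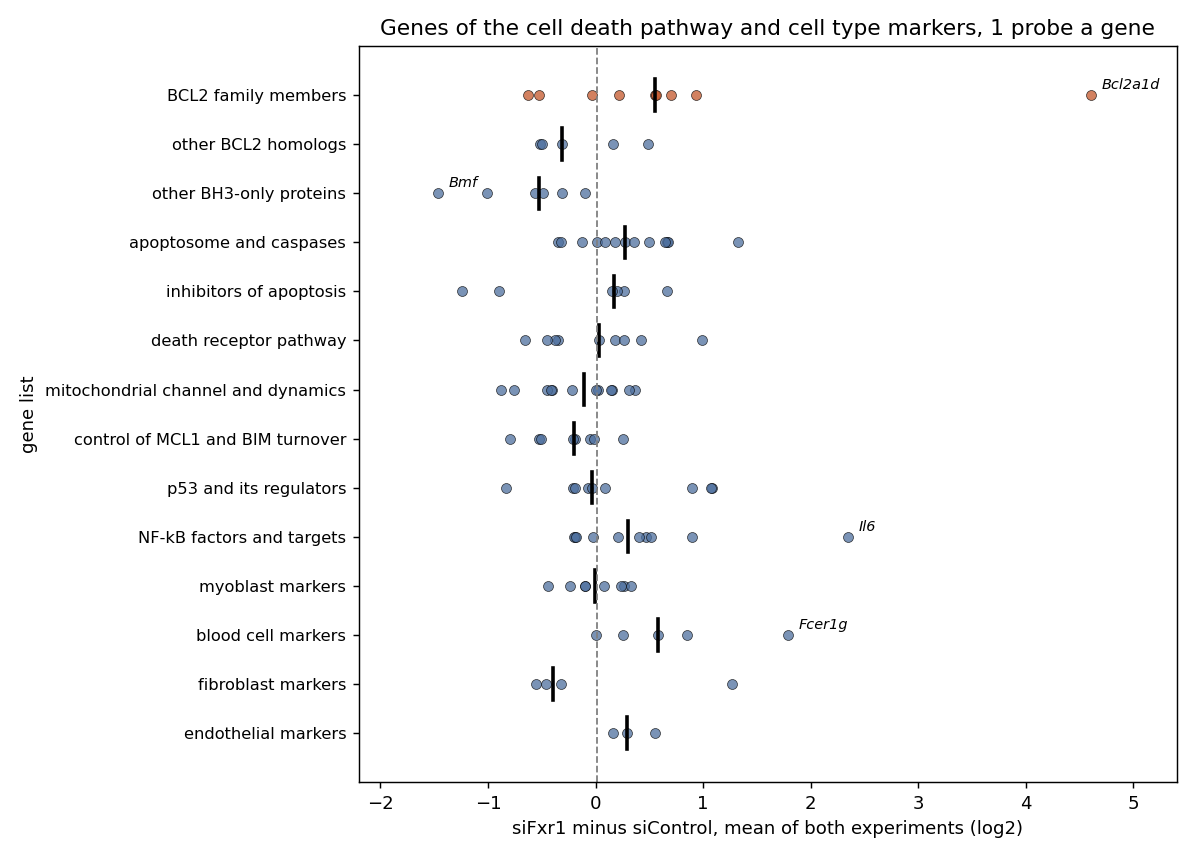
Mean difference between siFxr1 and siControl on the log2 scale (horizontal axis) of the genes of each list (vertical axis) that were detected, 1 probe per gene, with a black bar at the median of the list and a dashed line at the median of all detected probes (0.02). Bcl2a1d at 4.60 lies furthest out, and the 6 other BH3-only genes all lie below 0, with Bmf at -1.46.

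Since A1 is best known from blood cells, markers of other cell types were set beside it. Of 12 blood cell markers, 5 were not detected on any array, among them Ptprc, the pan-leukocyte antigen, and Tyrobp. Summed over the list, the signal on the log2 scale was 12.56 and 14.05 in siControl and 13.14 and 14.02 in siFxr1, and the conditions overlapped. That sum was mostly the signal of the Itgam probe (11.33 and 13.81 in siControl, 12.03 and 13.62 in siFxr1). The 5 markers detected had a median difference of 0.58. Of these, 3 were higher and 0 lower in siFxr1 in both experiments, against 33.2% and 31.0% of all detected probes. For 2, Csf1r (a difference of 0.85) and Fcer1g, both siFxr1 arrays lay above both siControl arrays, against 15.9% of the detected probes. Fcer1g, a signalling subunit of Fc receptors, was the 1 marker at least 2-fold higher in both experiments, against 1.94% of the detected probes. Its signals were 6.18 and 6.85 in siControl and 8.04 and 8.57 in siFxr1. The mean difference was 1.79 (SE 0.36, limma adjusted p = 0.950, and 0.0403 with the block among the detected probes). The part of these markers in the A1 result was not tested. The fibroblast and endothelial markers had 0 detected genes at least 2-fold different the same way in both experiments.

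How the signal is processed changed the A1 difference most. Across the 5 ways of processing the arrays, the means of the other probes kept their sign except for Bcl2, which was -0.03 on the main signal and between -0.00 and 0.05 on the others. The mean of Bbc3 lay between 0.49 and 0.70, that of Bcl2l11 between 0.35 and 0.57 and that of Bak1 between -0.64 and -0.44. The difference of Bbc3 in experiment 1 was 0.46 on the main signal and only 0.12 after normexp correction, 0.092 without background correction and 0.079 in the authors' table, so there its higher signal rests mainly on experiment 2. In experiment 1 the small differences of Mcl1 at A_52_P93933 (0.014 on the main signal, -0.073 without background correction) and of Pmaip1 (-0.21 and 0.039) changed sign.

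**Figure D5:**
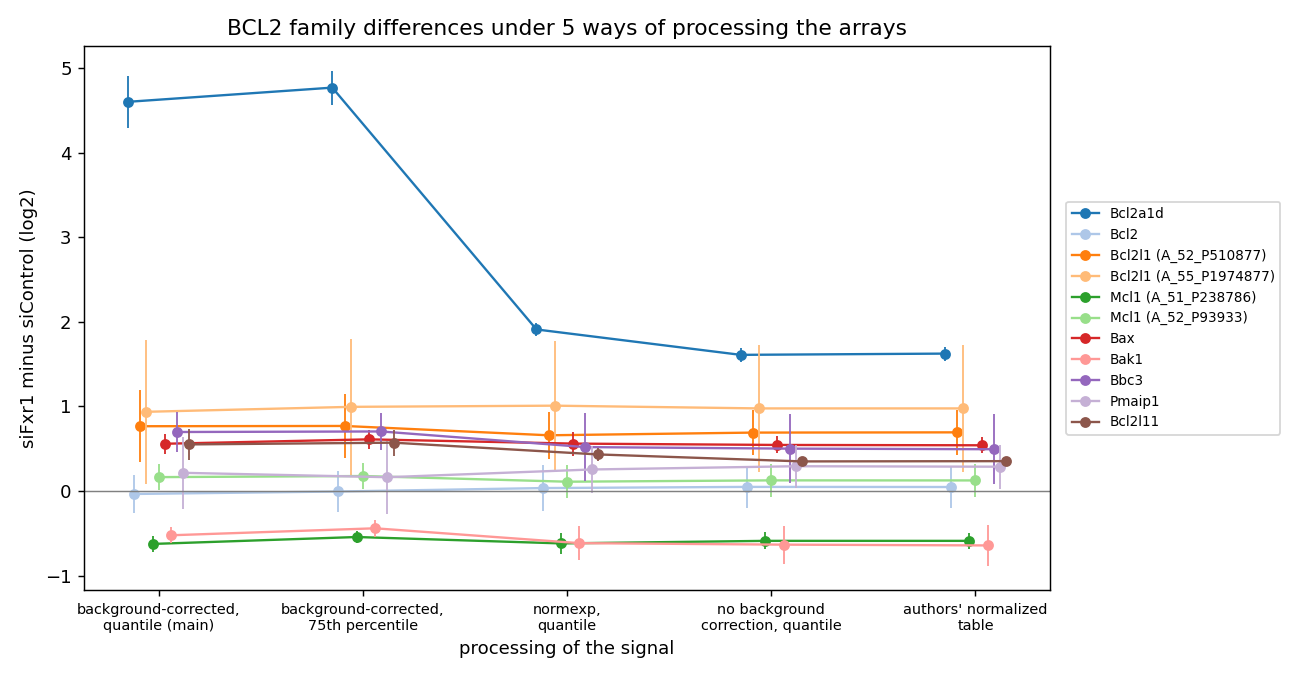
Mean difference between siFxr1 and siControl on the log2 scale (vertical axis) of the 11 probes under 5 ways of processing the arrays (horizontal axis), with vertical lines from the difference in 1 experiment to that in the other. The Bcl2a1d mean is 4.60 and 4.77 on the 2 background-corrected signals and between 1.61 and 1.91 on the other 3. It remains the highest mean of the family in each. In experiment 2 alone, Bcl2l1 (A_55_P1974877) was slightly above Bcl2a1d without background correction (1.73 against 1.69). The same held in the authors' table (1.73 against 1.71).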

How the data were processed

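The genes and lists were chosen with earlier results of these data known, so no p was adjusted over a list and no list was tested. For each array the authors deposited the output of Agilent Feature Extraction 10.7.3.1, with a raw and a background-corrected intensity per spot and no scaling across arrays. A second deposited file, their normalized intensities, served as an alternative. Limma is named per the labels, without a version.

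Corrected intensities were put on the log2 scale, quantile-normalized over 59305 spots that were not controls, and fitted for all 55681 probes with limma 3.58.1 (lmFit, eBayes) in R 4.3.3, with the condition as the only term. Spots marked as outliers (145 to 177 per array) were set to missing. A probe was called at a B above 0, with the Benjamini-Hochberg adjusted p given beside it. Intervals of the fitted differences are at 95%. A probe was detected on an array where a share of 0.5 or more of its spots had been marked as well above background. For the folds of probes undetected in siControl, an array without detection was given the probe's own signal or, if that was lower, the lowest signal at which any probe was detected on it. With arrays, the number of samples limits the precision.

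The experiment numbers pair the samples, since the labels mark independent experiments and each shared a slide. The deviations from the condition means of same-numbered arrays correlated at 0.714, and the median residual SD was 0.340 without and 0.190 with the block. Genes were named by this rule: all probes of the family, Fxr1, the genes of each list at least 2-fold different in both experiments, and the 3 named genes outside the family nearest in pattern to the Bcl2a1d probe. The whole-list descriptions of other BH3-only genes, homologs and caspases, with the named p53 genes, Csf1r and Itgam, were added after their values were seen. Probe positions on mm9 are those the array's annotation gives. Bases before a start are RefSeq's on GRCm38.p6, matched by symbol for 9 of the 10 genes and Bcl2a1a, and aligned with Biopython 1.88. Alternatives were 75th percentile scaling, normexp correction (offset 50), no background correction, the authors' table, detected probes only, a block for the experiment alone and joined with others, the fit of 4 between-array ratios, a trended variance prior, and each array left out.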

Additional observations from a re-analysis of the deposited data

How the results depend on the processing

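Of the 55681 probes, 0 had a B value above 0 with the condition alone, and 354 with the replicate block and the filter on dim probes, 410 with the block and normexp correction, 590 with the block and the authors' table, and 1107 with the 4 ratios as observations, which share arrays. In each of these 4 settings 1 probe of the family, Bcl2a1d, was called, and in each of the other settings, including the block alone and each array left out, 0 were (both counts ranging from 0 to 0 when each array was left out). With the block and normexp correction its adjusted p was 0.0825. The cause was not tested. The block alone gave Bcl2a1d an adjusted p of 0.535. With the filter alone the adjusted p of Bcl2a1d was 0.443. The 0.0146 came with the block and the filter together, and Bcl2a1d passed the filter through the siFxr1 arrays alone. The block changed the call of no other probe of the family. With each array left out the Bcl2a1d difference lay between 4.25 and 4.96. The 1 probe at least 2-fold different in both experiments was the same under the 5 other settings tried. Bcl2 was 0.035 with normexp correction, 0.049 without background correction and 0.048 in the authors' table, with or without the block for normexp and the table, and from -0.45 to 0.38 with arrays left out. Leaving out arrays moved Pmaip1 from -0.61 to 1.05, Mcl1 (A_52_P93933) from -0.27 to 0.60, and Bax from -0.23 to 1.35, the first pair turning without siControl replicate 2 or siFxr1 replicate 1 and Bax without siControl replicate 1 or siFxr1 replicate 2. Over the 11 probes and all settings, 148 values kept their direction and side of the threshold, 4 passed it and 13 turned. Dim probes limit what can be said: the size of the A1 difference depends on how the background is handled.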
